A study of Mus musculus with 5 samples.

Results

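The genes described here are 10 that mark the fibroblasts, pericytes and smooth muscle of a tissue: *Pdgfra*, *Pdgfrb*, *Acta2*, *Tagln*, *Myh11*, *Des*, *Dcn*, *Lum*, *Postn* and *Vim*. They were chosen as marker genes by symbol, with earlier results of these data known, and all 10 were found among the 24421 gene symbols counted. Gene expression was read by RNA sequencing of frozen pieces of the renal cortex in 3 *Fnip1* null mice (labelled *Fnip1*-/-; mice 8637, 9210 and 9121) and 2 wildtype mice (mice 9055 and 9056), all on a C57BL6J background and with 1 library per mouse. The null allele came from ENU chemical mutagenesis and is carried by every cell of the mouse, so no promoter or Cre limits it to a cell type. The labels give the control genotype as wildtype, whereas the text of the study also calls the control tissue *Fnip1*+/-. The labels give no age or sex of single mice.

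Fibroblasts and pericytes lie between the tubules and around the capillaries of the kidney, and vascular smooth muscle forms the wall of its arteries and arterioles. Signals from platelet-derived growth factors reach these cells through the receptors PDGFRA and PDGFRB, contractile cells build their filaments from smooth muscle actin and myosin, and fibroblasts secrete the collagens and proteoglycans of the matrix. Fibroblasts that take on contractile genes are called myofibroblasts, and their gain is a known feature of kidney fibrosis. Vimentin and desmin are intermediate filaments of mesenchymal cells, and glomerular cells and injured tubule cells can also make vimentin.

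Gene counts ran from 15799114 to 19132145 per mouse, and values for single mice are given as normalized CPM, the count scaled to library size and TMM factor. At this depth 3 counts in a mouse corresponded to 0.158 to 0.186 CPM, and the lowest count of any member in a mouse was 16, for *Lum* in mouse 9056. *Fnip1* itself was at 51.8 and 48.7 CPM in the wildtype mice and at 21.0, 16.9 and 16 CPM in the *Fnip1* null mice, a log2 fold change of -1.48 (adjusted p = 0.033, edgeR quasi-likelihood test). The proximal tubule markers of the cortex were abundant in every mouse, but their sum over 6 genes was lower in each null mouse than in both wildtype mice. It was 10781 and 12168 CPM in wildtype mice 9055 and 9056 and 9952, 8136 and 7341 CPM in null mice 8637, 9210 and 9121. *Slc34a1* was the largest part of this sum in every mouse. *Slc5a2* went the other way, at 340 and 359 CPM in wildtype and 469, 425 and 365 CPM in null mice, and *Slc22a8* had a log2 fold change of -0.04. Mouse 9121 stood apart from the other 4 mice in sex-linked genes, with *Xist* at 314 CPM against at most 1.41 CPM and with *Ddx3y* at 0, so the sexes were not balanced between the groups.

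All 10 members had a higher fitted level in *Fnip1* null than in wildtype tissue, with log2 fold changes from 0.37 for *Myh11* to 1.74 for *Postn* and a median of 0.94. Over the 13874 genes tested, 50.5% had a positive log2 fold change and the median was 0.0035. No member passed the threshold of the quasi-likelihood test, an FDR of 5% with a change of at least 2-fold, which 0.404% of all genes tested passed in the direction of higher expression. At an unadjusted p under 0.05 in the same test 6 of the 10 members were higher in *Fnip1* null mice, against 14% of all genes tested. The threshold was passed by 2 members, *Acta2* and *Vim*, in each of edgeR's exact test, edgeR's likelihood ratio test and DESeq2, which called 3.03%, 3.44% and 2.64% of all genes higher. An FDR of 5% without the fold limit was passed by 0 members in the quasi-likelihood test, against 0.526% of all genes, and by 4 members in each of the exact test (6.16% of all genes), the likelihood ratio test (6.81%) and DESeq2 (6.18%), namely *Pdgfrb*, *Acta2*, *Tagln* and *Vim*. The log2 fold change was at least 1 for 4 members, *Acta2*, *Lum*, *Postn* and *Vim*, and for 5.76% of all genes tested. For 7 of the 10 members all 3 *Fnip1* null mice lay above both wildtype mice, which was so for 22.9% of all genes tested. Because the members were chosen with earlier results of these data known, these shares are given as description and not as a test. For 3 mice against 2, the smallest p that an exact one-sided permutation test allows is 0.1. In tissue RNA, more cells of a type and more RNA per cell cannot be told apart.

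**Figure D1:**
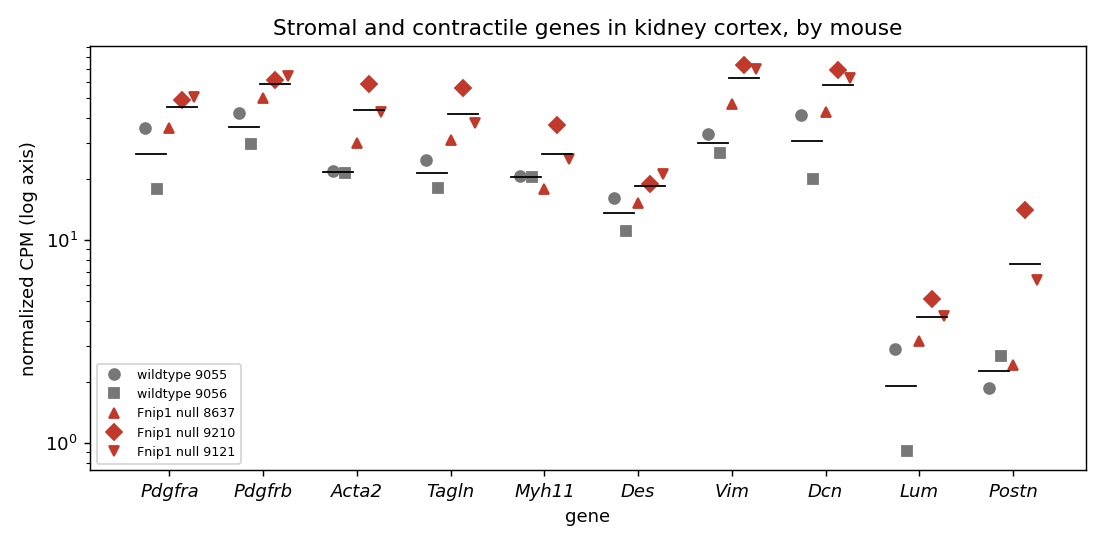
Normalized CPM (log axis) of each of the 10 members in each of the 5 mice, with wildtype and *Fnip1* null mice marked apart and a bar at each group mean. The null points lie above both wildtype points for 7 members, and for *Myh11*, *Des* and *Postn* mouse 8637 lies within or below the wildtype range.

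Promoter sequence was available in RefSeq (GRCm38.p6) for 5 of the 10 members, *Acta2*, *Des*, *Pdgfra*, *Postn* and *Vim*, and is shown because *Acta2* and *Vim* were the members called by 3 of the tests and *Postn* had the largest log2 fold change. *Pdgfrb*, *Tagln*, *Myh11*, *Dcn* and *Lum* had no entry. The 250 bases before each start site were searched on both strands for the CArG box, the motif bound by SRF in smooth muscle promoters, in its exact form (CC, 6 bases of A or T, GG) and in a relaxed form with at least 5 of the 6 core bases A or T, and for TATAAA. The exact form was in none of the 5 and in 1.47% of all 32851 promoters. The relaxed form, which 8.59% of all promoters held, was found in *Acta2* alone, starting 84 and 34 bases before the start site. TATAAA, in 12.4% of all promoters, was found in *Vim* and *Postn*, starting 32 and 26 bases before the start site. For *Postn* this was the start site at 54361107, and another *Postn* start site, at 54359267, had none of these motifs. The *Acta2* and *Vim* stretches overlap annotated exons of other transcripts of the same gene, and the *Postn* stretch lies outside annotated exons. In the following lines capitals mark the motif, and a match describes the letters only.
Acta2, chr19:34255438-34255467, minus strand: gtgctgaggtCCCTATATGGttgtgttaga
Acta2, chr19:34255388-34255417, minus strand: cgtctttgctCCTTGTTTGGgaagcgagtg
Vim, chr2:13574267-13574296, plus strand: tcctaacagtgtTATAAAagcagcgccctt
Postn, chr3:54361007-54361106, plus strand: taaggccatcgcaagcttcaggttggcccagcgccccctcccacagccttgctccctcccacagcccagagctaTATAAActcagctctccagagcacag

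*Pdgfra*, the receptor that marks interstitial fibroblasts (chromosome 5, 75152292 to 75198215, plus strand), was at 35.5 and 17.8 CPM in wildtype mice 9055 and 9056 and at 35.8, 49.3 and 50.8 CPM in *Fnip1* null mice 8637, 9210 and 9121. The groups did not overlap, but mouse 8637 and mouse 9055 were nearly equal, and the wildtype mice lay further apart than the 3 null mice. The means were 26.7 ± 12.6 (SD, n = 2) and 45.3 ± 8.29 CPM (SD, n = 3), and the log2 fold change of 0.77 (SE 0.307) did not pass the quasi-likelihood test (adjusted p = 0.19). *Pdgfrb*, the receptor of pericytes, mesangial cells and vascular smooth muscle (chromosome 18, 61045150 to 61085061, plus strand), was at 42.5 and 29.7 CPM in wildtype and at 50.2, 61.5 and 64.3 CPM in *Fnip1* null mice. Every null mouse was above both wildtype mice. Its means were 36.1 ± 9.06 (SD, n = 2) and 58.6 ± 7.44 CPM (SD, n = 3), with a log2 fold change of 0.70 (SE 0.186, adjusted p = 0.104, quasi-likelihood test). *Pdgfrb* passed an FDR of 5% in the exact test (adjusted p = 0.0208), the likelihood ratio test (adjusted p = 0.0194) and DESeq2 (adjusted p = 0.0177), each with a change below 2-fold. All gene coordinates follow GENCODE M21 (GRCm38, mm10).

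The ligands of these receptors were closer to equal between the genotypes. All 4 PDGF ligand genes were tested, with a median log2 fold change of 0.09, from 0.03 for *Pdgfc*, a ligand of PDGFRA (31.0 and 33.3 CPM in wildtype mice and 31.5, 37.6 and 29.6 CPM in null mice), to 0.51 for *Pdgfa* (6.96 and 5.61 CPM in wildtype and 7.84, 8.62 and 10.3 CPM in null mice, adjusted p = 0.178, quasi-likelihood test). None of the 4 passed the threshold in the quasi-likelihood test, the exact test, the likelihood ratio test or DESeq2, and 1 had an unadjusted p under 0.05.

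*Acta2*, the smooth muscle actin of arterial walls and of myofibroblasts (chromosome 19, 34241090 to 34255590, minus strand), was at 22.0 and 21.3 CPM in the wildtype mice, which were nearly equal, and at 30.2, 59.0 and 42.9 CPM in the *Fnip1* null mice. The groups did not overlap, and mouse 8637 was the null mouse closest to wildtype. The means were 21.7 ± 0.466 (SD, n = 2) and 44.0 ± 14.4 CPM (SD, n = 3), a log2 fold change of 1.02 (SE 0.270, adjusted p = 0.104, quasi-likelihood test). It had an adjusted p of 0.0122 in the exact test, 0.011 in the likelihood ratio test and 0.0075 in DESeq2, so the choice of test decided whether *Acta2*, whose promoter held the relaxed CArG motif shown above, was counted as changed. *Tagln*, which encodes the actin-binding protein transgelin (chromosome 9, 45929619 to 45936058, minus strand), was at 24.7 and 18.1 CPM in wildtype and at 31.2, 56.2 and 37.6 CPM in *Fnip1* null mice. Mouse 9210 was again the highest and the groups did not overlap. *Tagln* had a log2 fold change of 0.96 (SE 0.277, adjusted p = 0.116, quasi-likelihood test) and an adjusted p of 0.0154 in DESeq2, with a change below 2-fold. Of its 1988 exon bases, 1349 overlap exons of *Pcsk7* and *Gm48529* on the opposite strand, and whether the counting used strand is not given in the sources used here, so its level is uncertain.

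*Myh11*, the smooth muscle myosin heavy chain and the most restricted smooth muscle marker of the list (chromosome 16, 14194535 to 14291372, minus strand), was at 20.6 and 20.5 CPM in wildtype mice and at 17.8, 36.8 and 25.1 CPM in *Fnip1* null mice. The groups overlapped, because mouse 8637 was below both wildtype mice while the other 2 null mice were above them. Its log2 fold change of 0.37 (SE 0.288) was the smallest of the 10 members and did not pass the quasi-likelihood test (adjusted p = 0.454). *Des*, the desmin of muscle, pericyte and mesangial cells (chromosome 1, 75360329 to 75368579, plus strand), was at 16.2 and 11.2 CPM in wildtype and at 15.3, 18.9 and 21.2 CPM in *Fnip1* null mice. Mouse 8637 fell between the wildtype mice, and the log2 fold change was 0.44 (SE 0.215, adjusted p = 0.26, quasi-likelihood test). The other smooth muscle contractile genes lay on the same side: 8 of 9 listed were tested, and all 8 had positive log2 fold changes, with a median of 0.59 between *Cnn1*, an actin-binding calponin, at 0.19 and *Synpo2*, an actin-binding protein, at 0.84. Of these 8, 4 had all null mice above both wildtype mice, 3 had an unadjusted p under 0.05, and 0 passed the threshold in any of the quasi-likelihood, exact and likelihood ratio tests and DESeq2. *Srf*, the transcription factor of contractile genes, and its coactivators had a median log2 fold change of 0.05 over 3 tested genes, and *Myocd*, the smooth muscle coactivator, stayed at or below 0.892 CPM in every mouse and was not tested.

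**Figure D2:**
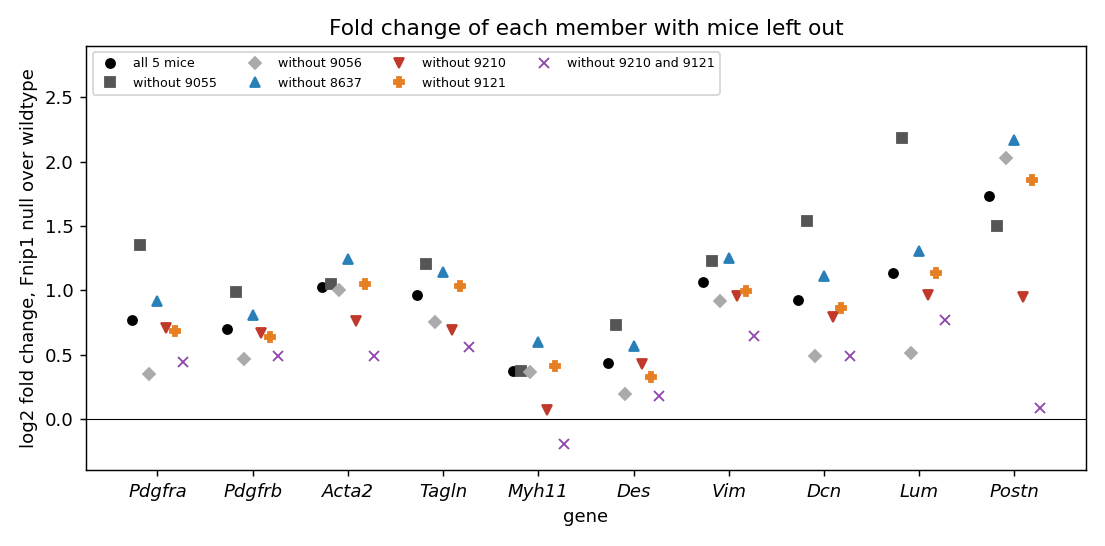
Log2 fold change (*Fnip1* null over wildtype) of each member with all 5 mice and with mice left out, 1 point per setting. All members stay above 0 with any single mouse left out, and *Myh11* is at -0.20 when mice 9210 and 9121 are both left out.

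*Vim*, the vimentin of mesenchymal cells (chromosome 2, 13573927 to 13582826, plus strand), was at 33.4 and 27.0 CPM in wildtype mice and at 46.9, 72.8 and 69.5 CPM in *Fnip1* null mice. All null mice were above both wildtype mice, and mice 9210 and 9121 were the highest. The means were 30.2 ± 4.50 (SD, n = 2) and 63.1 ± 14.1 CPM (SD, n = 3), a log2 fold change of 1.06 (SE 0.215). Its adjusted p of 0.0738 in the quasi-likelihood test was the lowest of the 10 members, and it was 0.000791 in the exact test, 0.000723 in the likelihood ratio test and 0.000446 in DESeq2. *Nes*, the nestin that assembles with vimentin and desmin and that podocytes also make, was at 31.8 and 24.5 CPM in wildtype and 50.6, 56.6 and 59.7 CPM in null mice (log2 fold change 0.98, adjusted p = 0.0524, quasi-likelihood test). *Synm*, the other intermediate filament partner tested, had a log2 fold change of 0.16, and *Gfap* and *Prph* were at or below 0.186 CPM in every mouse. Podocytes and injured tubules are 2 other possible homes of vimentin. All 4 podocyte genes compared had null mice above both wildtype mice, with summed levels of 304 and 293 CPM in wildtype and 492, 585 and 524 CPM in null mice, and *Nphs1*, the nephrin of the slit diaphragm (log2 fold change 1.08, adjusted p = 0.0354), passed the threshold of the quasi-likelihood test. Of 6 tested tubular injury genes 5 had positive log2 fold changes, from -0.08 for *Krt8* to 2.38 for *Lcn2*, a secreted injury marker, and 3 had all null mice above both wildtype mice. None of the 6 passed the threshold of the quasi-likelihood test, 3 did in each of the other tests, and 3 had an unadjusted p under 0.05. *Havcr1*, the tubular injury molecule KIM-1, did not follow *Vim*, with 1.99 and 1.43 CPM in wildtype mice and 11.1, 3.86 and 0.475 CPM in null mice. *Krt18* had the same order of the 5 mice as *Vim*, at 12.8 and 11.2 CPM in wildtype and 17.9, 39.1 and 29.9 CPM in null mice. *Spp1* was at 794 and 813 CPM in wildtype and at 1906, 2774 and 2636 CPM in null mice. The part of these cells in the *Vim* level was not tested.

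*Dcn*, the decorin of the fibroblast matrix (chromosome 10, 97479609 to 97518143, plus strand), was at 41.4 and 20.1 CPM in wildtype mice and at 42.7, 69.0 and 63.2 CPM in *Fnip1* null mice. The groups did not overlap, but the wildtype mice were 2.06-fold apart and mouse 8637 was close to the higher of them. The means were 30.8 ± 15.1 (SD, n = 2) and 58.3 ± 13.8 CPM (SD, n = 3), with a log2 fold change of 0.92 (SE 0.341, adjusted p = 0.168, quasi-likelihood test). *Lum*, the related proteoglycan lumican (chromosome 10, 97565128 to 97572703, plus strand), was at 2.92 and 0.915 CPM in wildtype and at 3.18, 5.11 and 4.22 CPM in null mice. It rested on 47 and 16 counts against 54, 86 and 80 counts, and the log2 fold change of 1.13 had the wide SE of 0.474 (adjusted p = 0.202, quasi-likelihood test). *Postn*, the periostin of activated fibroblasts (chromosome 3, 54361109 to 54391037, plus strand), was at 1.86 and 2.69 CPM in wildtype mice and at 2.42, 14.2 and 6.34 CPM in null mice. Mouse 8637 lay between the wildtype mice, and mouse 9210 was the highest of the 5. The log2 fold change of *Postn* was the largest of the members, 1.74, and also had the largest SE, 0.725 (adjusted p = 0.201, quasi-likelihood test). Without mouse 9210 it was 0.95, and without mouse 8637 it was 2.17 (adjusted p = 0.0263, quasi-likelihood test). Leaving out mouse 8637 also raised the share of all genes called higher to 4.36%, against 0.404% with all 5 mice.

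The other fibroblast matrix genes had the same sign as *Dcn*, *Lum* and *Postn*. Of 15 listed, 13 were tested, and all 13 had positive log2 fold changes with a median of 1.07, from 0.71 for *Fbln2*, a fibulin (4.35 and 4.18 CPM in wildtype and 5.24, 9.16 and 6.55 CPM in null mice), to 2.03 for *Mfap4*, a microfibril protein (0.683 and 0.515 CPM against 0.707, 4.04 and 2.64 CPM). For 8 of the 13 all null mice were above both wildtype mice, 9 had an unadjusted p under 0.05, and 0 passed the threshold of the quasi-likelihood test, whereas 5 did in the exact test, 5 in the likelihood ratio test and 7 in DESeq2. Proteoglycans of the family of *Dcn* and *Lum* did not all share their sign. Of 7 tested, 5 had positive log2 fold changes, from -0.64 for *Podn* (27.1 and 31.5 CPM in wildtype and 22.9, 17.6 and 15.8 CPM in null mice, adjusted p = 0.111, quasi-likelihood test) to 0.997 for *Ogn* (19.3 and 10.1 CPM against 25.9, 29.7 and 32.3 CPM, adjusted p = 0.11). *Tgfbi*, the relative of *Postn*, had a log2 fold change of 1.33 (adjusted p = 0.0779, quasi-likelihood test).

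**Figure D3:**
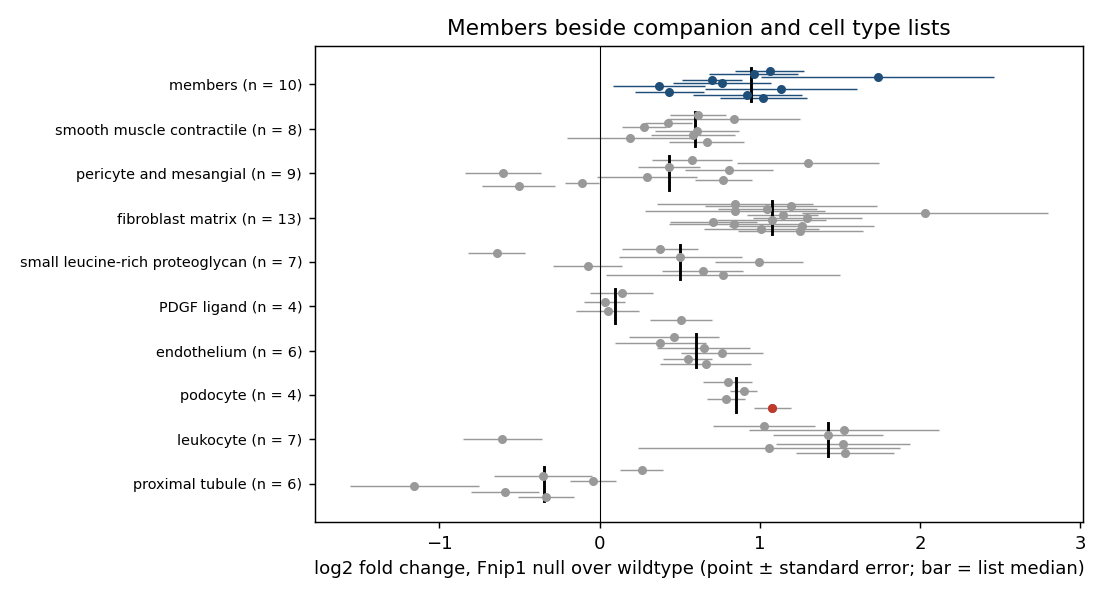
Log2 fold changes (*Fnip1* null over wildtype, with standard errors) of the members, in blue, and of the tested genes of 9 companion and cell type lists, with a black bar at each list's median and the 1 gene past the threshold, *Nphs1*, in red. The members (median 0.94) and the fibroblast matrix genes (median 1.07) lie above 0 throughout, and the proximal tubule genes (median -0.34) lie mostly below it.

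Pericyte and mesangial genes were divided. Of 9 tested, 6 had positive and 3 had negative log2 fold changes, with a median of 0.44. *Ren1*, the renin of juxtaglomerular cells, was the highest at 1.30 (4.41 and 10.5 CPM in wildtype and 14.5, 26.5 and 14.2 CPM in null mice, adjusted p = 0.147, quasi-likelihood test). *Kcnj8*, a potassium channel subunit of pericytes, was the lowest at -0.60 (10.8 and 7.78 CPM against 5.42, 5.29 and 7.60 CPM, adjusted p = 0.188), and its null mice were all below both wildtype mice, unlike those of *Pdgfrb*. None of the 9 passed the threshold of the quasi-likelihood or exact test, *Ren1* did in the likelihood ratio test and DESeq2, and 4 had an unadjusted p under 0.05, 3 of them higher and 1 lower.

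The members differed between mice of the same genotype. Mouse 9210 was the highest of the 5 for 7 members and mouse 9121 for 3, and mouse 9056 was the lowest for 8. Both of these null mice were above both wildtype mice for all 10 members, which was so for 34.2% of all genes tested. This pair was singled out from the members' own values, so the share over all genes is not an even comparison. The median ratio of mouse 9210 to mouse 8637 was 1.61 over the members against 1.01 over all genes tested, that of mouse 9121 to mouse 8637 was 1.41 against 1.004, and that of wildtype mouse 9055 to mouse 9056 was 1.40 against 0.995. Summed over the members, the level was 241 and 169 CPM in wildtype mice 9055 and 9056 and 276, 443 and 385 CPM in null mice 8637, 9210 and 9121. Relative to the wildtype mean, the median log2 level of the members was 0.22 in mouse 9055, -0.26 in mouse 9056, 0.47 in mouse 8637, 1.22 in mouse 9210 and 0.96 in mouse 9121. Without mice 9210 and 9121, 9 of the 10 members had a positive log2 fold change and the median was 0.49. Without wildtype mouse 9056 the median was 0.50, and without mouse 9055 it was 1.22.

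**Figure D4:**
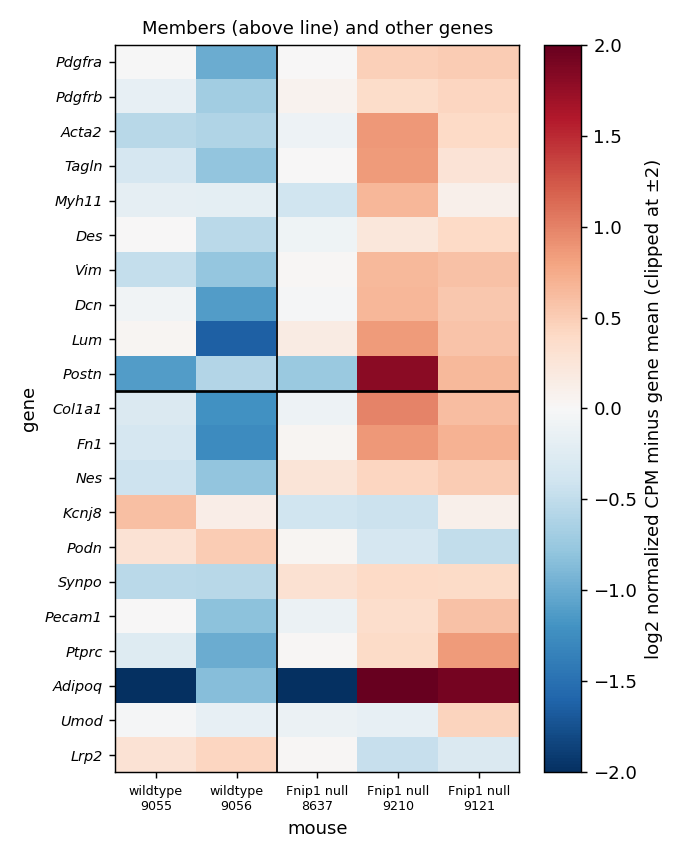
Log2 normalized CPM minus the gene's mean over the 5 mice (colour, clipped at ±2) for the 10 members, above the horizontal line, and 11 genes of the companion lists, below it, with 1 column per mouse. Mouse 9210 holds the highest value of 7 members and mouse 9056 the lowest of 8, and *Adipoq* is low in mouse 8637 and high in mice 9210 and 9121.

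Markers of other cells also differed between these mice, some in the order of members and some in other orders. The 4 adipocyte genes summed to 34.0 and 28.8 CPM in wildtype mice and to 50.4, 196 and 112 CPM in null mice 8637, 9210 and 9121. *Fabp4* was the largest part of this sum in every mouse, with 31.8 and 25.1 CPM in wildtype and 48.4, 138 and 89.4 CPM in null mice. Its order of the 5 mice, and that of the sum, was the order of *Acta2*, *Tagln*, *Dcn*, *Lum* and *Vim*. The podocyte sum given above had this order too. *Adipoq*, which only fat cells make in quantity, had a different order, which was that of *Postn*. It was at 0.497 and 1.32 CPM in wildtype and 0.589, 22.1 and 8.98 CPM in null mice. *Cidec* was at 1.37 and 2.40 CPM in wildtype and at 1.24, 27.8 and 9.61 CPM in null mice. Summed levels of the 6 endothelial genes were 365 and 215 CPM in wildtype and 356, 410.4 and 507 CPM in null mice, which was the order of *Des*. The endothelial log2 fold changes were positive in 6 of 6, with a median of 0.60. Leukocyte genes had positive log2 fold changes in 6 of 7 tested, between -0.61 for *Csf1r*, a receptor kinase of macrophages, and 1.53 for *Adgre1*, the F4/80 antigen. Their summed levels were 106 and 88.7 CPM in wildtype and 78.6, 98.3 and 171 CPM in null mice. *Csf1r* was the largest part of these sums, with 72.4 and 68.4 CPM in wildtype and 38.2, 36.4 and 63.9 CPM in null mice. For 4 of the 7 genes all null mice were above both wildtype mice, and for *Csf1r* all were below. The B cell gene *Cd79a* was at 0 in the 3 null mice. Urothelial genes summed to at most 3.09 CPM in 4 mice and to 16 CPM in mouse 9121, and the skeletal muscle myosin *Myh4* was at 0 in every mouse. Proximal tubule genes had negative log2 fold changes in 5 of 6, with a median of -0.34, and their sum was highest in mouse 9056, where 8 members were lowest, and lowest in mice 9210 and 9121, which held the highest value of every member. The part of the proximal tubule, podocytes, fat, vessels, leukocytes or the sex of mouse 9121 in the members' levels was not tested. Without mouse 9121 the members' median log2 fold change was 0.93.

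Among the members, profiles across the 5 mice were closest for *Pdgfra* and *Dcn*, with a root mean square difference of 0.107 in log2 CPM centred on each gene's mean, followed by *Pdgfrb* and *Des* at 0.138 and by *Acta2* and *Tagln* at 0.15. *Postn* was the furthest from the rest, at 0.558 to 0.902. Among the other genes tested, those nearest to the mean profile of *Acta2*, *Tagln*, *Myh11* and *Des* were *Kit* (0.0427), *Ehd2* (0.0465), *Crip1* (0.0601), *Prkcb* (0.0609) and *Lmod3* (0.0626). Those nearest to the mean profile of *Dcn*, *Lum* and *Postn* were *Smoc2* (0.0677), *Ccdc80* (0.0796), *2610305D13Rik* (0.0910), *Col1a1* (0.0932) and *Col3a1* (0.0956). These differences describe 5 libraries and have no test.

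To compare levels between members, CPM was divided by the length of the gene's annotated exons in kilobases. In wildtype tissue the order was *Tagln* (10.8 ± 2.37 CPM per kb, SD, n = 2), *Acta2* (9.87 ± 0.212), *Pdgfrb* (6.59 ± 1.65), *Vim* (6.36 ± 0.949), *Dcn* (5.27 ± 2.59), *Des* (3.65 ± 0.953), *Myh11* (2.70 ± 0.0140), *Pdgfra* (2.66 ± 1.25), *Lum* (0.783 ± 0.579) and *Postn* (0.262 ± 0.0670). Of the 9 pairs of neighbours in this order, 7 differed by less than the larger of their SDs, and *Acta2* over *Pdgfrb* and *Pdgfra* over *Lum* differed by more. In *Fnip1* null tissue *Vim* (13.3 ± 2.98 CPM per kb, SD, n = 3) stood above *Pdgfrb* (10.7 ± 1.36) and *Pdgfra* (4.52 ± 0.827) above *Myh11* (3.50 ± 1.26), and *Tagln* (21.0 ± 6.54) and *Acta2* (20.1 ± 6.56) again led. *Postn*, at 0.877 ± 0.686 CPM per kb, stayed last. The place of *Tagln* in both groups is uncertain, because of the opposite-strand exon overlap given above. With the longest transcript as the length, *Vim* also stood above *Pdgfrb*, and *Pdgfra* above *Myh11* (3.90 against 3.14 CPM per kb), in wildtype tissue.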

How the data were processed

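RNA libraries of 5 mice (3 *Fnip1* null, 2 wildtype) were sequenced. Per the labels, the authors aligned reads to mm10 with TopHat2 2.1.0 and counted them per gene with HTSeq 0.6.1; the deposited values are raw counts. The annotation and strand setting are not given in the sources used here. The 5 summary rows that name no gene held 39.0 to 42.8% of each file and were left out. A gene was dropped when over 2 of the 5 mice had under 10 counts. Genotypes were compared with edgeR 4.0.16 (R 4.3.3, limma 3.58.1): TMM normalization and the quasi-likelihood test with legacy = FALSE, whereas this version defaults to the legacy form, and p-values were adjusted by Benjamini-Hochberg over all 13874 genes. The exact and likelihood ratio tests, DESeq2 1.42.0, other normalizations and filters, and leaving out mice were alternatives. Each mouse was a separate animal. The fits were tested on simulated data.

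The members and the companion lists were chosen with earlier results of these data known. The genes named are the members, the highest and lowest gene of those companion lists whose range is given, those past the threshold and *Fnip1*. The companion genes counted also include 4 proliferation genes, all with positive log2 fold changes (median 1.14). They include 6 genes of the loop and distal nephron as well, all positive (median 0.35). Also named are the other actins, markers of other cell types beside a result, and the 5 genes nearest to the contractile and matrix profiles. *Nphs1* was past the threshold. One gene of the podocyte list is not reported here and was left out of that list's values. Exon lengths and coordinates were taken from GENCODE M21 (GRCm38) by symbol.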

Additional observations from a re-analysis of the deposited data

How the results depend on the processing

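All 10 members kept a positive log2 fold change under every other test, normalization and filter and with any single mouse left out. Calls depended on the test. The exact test called 421 genes higher and 144 lower, the likelihood ratio test 477 and 151, and DESeq2 366 and 121, against 56 and 17 in the quasi-likelihood test. Each of these called 2 members, *Acta2* (log2 fold change 1.02) and *Vim* (1.06), and 18, 20 and 20 companion genes, against 1. The legacy quasi-likelihood method, no filter, the filter of 1 CPM in 3 mice, filterByExpr and the FDR alone each called 2 companion genes. Without TMM 3 companion genes were called, and the median of all genes shifted to 0.17 and that of the members to 1.11. With each mouse left out in turn of the quasi-likelihood test, 0 to 595 genes were called higher and 0 to 259 lower, 0 to 4 members and 0 to 24 companion genes, and the members' median was 0.50 to 1.22. No gene was called without wildtype mouse 9055, wildtype mouse 9056 or null mouse 9210, and the 4 members were called without mouse 8637: *Acta2* (0.76 to 1.24 over these settings), *Tagln* (0.69 to 1.21), *Postn* (0.95 to 2.17) and *Vim* (0.92 to 1.25). Without mouse 8637, 4.36% of all genes tested were called higher, against 0.404% with all 5 mice. Where 1 wildtype mouse was left, it was assumed to vary like the null mice. Without both mice 9210 and 9121, a setting chosen after seeing the data, 107 genes were called higher and 58 lower, 3 companion genes and no member; the members' median was 0.49 and *Myh11* reversed to -0.20. The causes were not tested. No paired analysis was possible because the mouse numbers are not shared between the groups. *Lum* and *Postn* had the largest SEs of the members (0.474 and 0.725) and the lowest counts in wildtype mice. *Postn* also ranged from 2.42 to 14.2 CPM over the null mice, and 2 wildtype mice limit every comparison.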

Other observations

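Among the relatives of *Acta2*, the actins of skeletal muscle (*Acta1*) and enteric smooth muscle (*Actg2*) were at or below 0.238 CPM in every mouse and were not tested. The cytoplasmic actin *Actb* was at 470.4 and 449.9 CPM in wildtype mice and at 510, 468 and 523 CPM in *Fnip1* null mice, a log2 fold change of 0.12 (adjusted p = 0.512, edgeR quasi-likelihood test). The other cytoplasmic actin, *Actg1*, was at 929 and 899 CPM in wildtype and at 1132, 1171 and 1118 CPM in null mice. Its log2 fold change was 0.32 (adjusted p = 0.198, quasi-likelihood test, and 0.0146, DESeq2), and every null mouse was above both wildtype mice. The cardiac actin *Actc1* was at 1.68 and 1.37 CPM in wildtype and at 3.42, 2.08 and 3.43 CPM in null mice, a log2 fold change of 0.97 (adjusted p = 0.143).

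Receptor kinases of the family of *Pdgfra* and *Pdgfrb* had log2 fold changes of both signs. *Flt3*, a receptor of dendritic cell precursors, was at 0.311 and 0.286 CPM in wildtype and at 0.825, 1.13 and 1.37 CPM in null mice (1.88, adjusted p = 0.0982, edgeR quasi-likelihood test). *Csf1r* was at 72.4 and 68.4 CPM in wildtype and at 38.2, 36.4 and 63.9 CPM in null mice (-0.61, adjusted p = 0.193), so that every null mouse was below both wildtype mice.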
